A study of Mus musculus with 6 samples.

Results

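Tbx1, Tbx2, Tbx3, Tbx4, Tbx5 and Tbx20, the 6 genes described here, encode T-box transcription factors with known roles in the heart and its surroundings, and were read in whole mouse hearts at embryonic day 16.5. They were chosen through the array probe sets that the platform annotation gives to exactly 1 of these 6 symbols, 14 of 45101 probe sets in all. Tbx3 had 5 of them, Tbx20 had 3, Tbx4 and Tbx5 had 2 each, and Tbx1 and Tbx2 had 1 each. The hearts came from FOG-2R3K5A embryos and WT siblings, with 3 samples of each genotype named as separate biological replicates. The embryos were from crosses of double heterozygotes on a background given as mixed C57/B6, 129 S6. Zfpm2 encodes FOG-2, which binds GATA transcription factors in the heart and recruits the chromatin remodelling complex NuRD. The R3K5A allele changes amino acids in the stretch that contacts NuRD. The labels give neither the zygosity of the FOG-2R3K5A embryos nor the number of hearts in a sample. The spread behind each p-value is that between these 6 samples, and part of it may be technical. In the limma test each gene's spread is also drawn toward that of other genes of like brightness. Because whole hearts were read, fewer cells of a type and less RNA per cell cannot be told apart.

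T-box proteins bind DNA through the domain that names the family, and in the heart some activate and others repress the same genes. Tbx5 and Tbx20 are known to cooperate with Nkx2-5 and GATA factors in working myocardium, while Tbx2 and Tbx3 repress the chamber programme in the atrioventricular canal, the sinus node and other parts of the conduction system. Tbx1 is known from the pharyngeal arches and the outflow tract, and Tbx4 chiefly from the hindlimb and the lung, where Tbx5 is also expressed. Tbx20 is known in mice to hold back Tbx2 in the chambers. In the gene order of GRCm38.p6 Tbx2 and Tbx4 lie side by side, with 0 genes of any kind between them. Tbx3 and Tbx5 are neighbours among protein-coding genes, with 2 other genes between them.

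Among the arrays, WT replicate 1 was the most like the other genotype, and its closest array was FOG-2R3K5A replicate 2 (r = 0.990 across the tested genes). Its mean 18S rRNA control intensity was 969, against 429 and 411 on the other two WT arrays and 631 to 1050 on the FOG-2R3K5A arrays. Whether that control bears on the T-box values was not tested. The labelled tissue was borne out by its markers: all 9 heart genes looked at, Tnnt2 and Myh6 among them, were above the filter level, and their summed level was 16.39 to 16.42 log2 units in FOG-2R3K5A hearts and 16.31 to 16.36 in WT hearts. The filter level, 6.30 log2 units or an intensity of 78.9, is the median over the mean readings of all probe sets other than array controls. It stands in for a detection call, which was not used here.

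The promoters of Tbx20 and of 2 chamber genes, Nppa and Ankrd1, are shown first, because Tbx20 is the member that passed the test and Nppa is a known target of T-box factors. RefSeq promoters of build GRCm38.p6, which run from 250 bases before to 50 bases after the gene start, were found for 3 of the 6 members. In the Tbx20 promoter, chr9:24774254-24774553 on the minus strand, capitals mark the GC box GGGCGG on either strand, which 35.7% of all 32851 promoters hold. The Tbx20 window holds neither the GATA core GATAA nor the T-box site GGTGTGA. In the promoters of Nppa (chr4:148000472-148000771, plus strand) and Ankrd1 (chr19:36119795-36120094, minus strand) capitals mark GATAA and GGTGTGA on either strand, which do not overlap each other there.
Tbx20: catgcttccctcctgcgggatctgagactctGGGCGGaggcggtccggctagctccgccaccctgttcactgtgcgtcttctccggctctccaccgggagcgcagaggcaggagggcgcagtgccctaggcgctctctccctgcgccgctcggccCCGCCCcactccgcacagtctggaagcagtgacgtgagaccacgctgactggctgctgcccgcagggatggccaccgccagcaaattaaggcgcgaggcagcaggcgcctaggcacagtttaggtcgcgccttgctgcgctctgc
Nppa: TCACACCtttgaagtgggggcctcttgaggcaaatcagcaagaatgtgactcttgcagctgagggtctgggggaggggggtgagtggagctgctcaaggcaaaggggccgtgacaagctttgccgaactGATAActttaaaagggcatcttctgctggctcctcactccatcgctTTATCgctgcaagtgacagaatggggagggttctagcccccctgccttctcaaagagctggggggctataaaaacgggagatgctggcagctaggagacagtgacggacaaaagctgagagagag
Ankrd1: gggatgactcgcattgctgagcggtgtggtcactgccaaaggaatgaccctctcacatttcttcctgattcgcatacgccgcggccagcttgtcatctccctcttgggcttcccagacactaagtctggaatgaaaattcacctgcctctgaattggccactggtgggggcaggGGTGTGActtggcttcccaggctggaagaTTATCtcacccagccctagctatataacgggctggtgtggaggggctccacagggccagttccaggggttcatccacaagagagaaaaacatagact

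The T-box site GGTGTGA occurs in 3.98% of all promoters and the GATA core GATAA in 25.4%. Of the 15 chamber genes with a promoter in the table, 2 held the T-box site (Nppa and Ankrd1) and 10 held the GATA core. None of the 3 members with a promoter there, Tbx1, Tbx4 and Tbx20, held either motif. Genes were counted if any of their promoters held a motif, while the shares are of single promoters, so the 2 are not alike. The matches describe letters in windows of 300 bases and are not binding sites.

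Tbx20 transcript was lower in FOG-2R3K5A hearts, by 0.38 on the log2 scale (SE 0.08, 1.30-fold). It was the only T-box member that passed the test, just under the threshold (limma adjusted p = 0.0461). This call ended in 11 of 16 alternatives of processing or of arrays used. Tbx5 and Tbx3 had negative differences that did not pass, and the readings of Tbx2, Tbx4 and Tbx1 lay on average below the filter level, so that they entered no test at gene level. In all, 3 of the 6 members were tested, 1 of these was called lower and 0 higher. Over all 11113 genes tested, 1.76% were called in either direction and 0.369% were called lower.

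**Figure D1:**
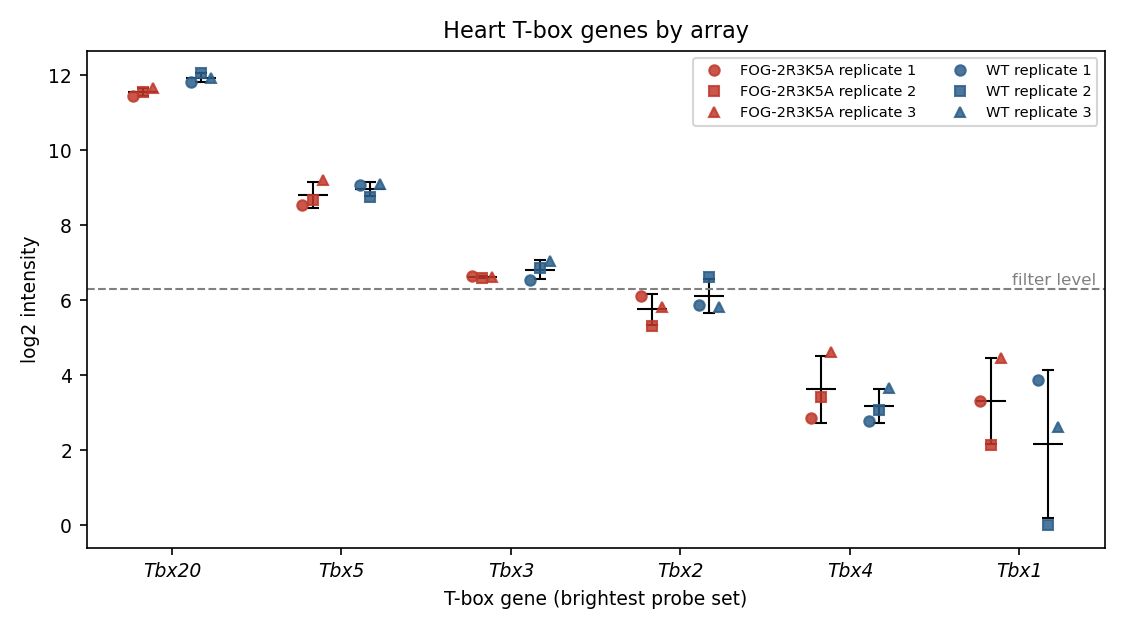
Log2 intensity (y axis) of the brightest probe set of each T-box gene (x axis) on 3 FOG-2R3K5A arrays (red) and 3 WT arrays (blue), with the mean and SD in black and the filter level dashed. The 3 FOG-2R3K5A arrays lie below the 3 WT arrays for Tbx20, and the genotypes overlap for the other 5 genes.

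Tbx20, a T-box factor that heart muscle needs for its growth and function, was bright on every array. Its brightest probe set, 1453351_at, read 11.44, 11.56 and 11.66 log2 units in FOG-2R3K5A replicates 1, 2 and 3 and 11.82, 12.05 and 11.93 in WT replicates 1, 2 and 3. The highest FOG-2R3K5A array lay below the lowest WT array, so the genotypes did not overlap. On the linear scale these are intensities of 2786 to 3244 in FOG-2R3K5A hearts and 3621 to 4251 in WT hearts. The means were 11.55 ± 0.11 in FOG-2R3K5A hearts and 11.93 ± 0.12 in WT hearts (SD, n = 3 each), and the difference had a 95% interval of -0.55 to -0.21 and an adjusted p of 0.0461 by limma. Ranges that do not overlap, with FOG-2R3K5A below, were found for 9.76% of all tested genes. By p-value Tbx20 stood at rank 174 of the 196 genes called, and by size at rank 38 of the 41 genes called lower.

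Both other Tbx20 probe sets also separated the genotypes. Probe set 1425158_at read 10.06, 10.26 and 10.17 in FOG-2R3K5A hearts and 10.50, 10.69 and 10.45 in WT hearts, a difference of -0.39 (SE 0.08). Probe set 1422219_a_at, the dimmest of the 3, read 7.76, 7.82 and 7.71 in FOG-2R3K5A hearts and 8.02, 8.24 and 7.91 in WT hearts, a difference of -0.29 (SE 0.11). All 3 probe sets were thus lower on each FOG-2R3K5A array than on any WT array, by amounts that overlap within their errors. In the fit over all 34945 probe sets with 1 symbol, limma gave them unadjusted p-values of 0.00200, 0.00231 and 0.0289, and after adjustment none passed (0.160, 0.167 and 0.393). In that fit 0.226% of probe sets were called. The probe sets share their arrays and their gene, so they are repeat readings of the same 6 samples and not further replicates.

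**Figure D2:**
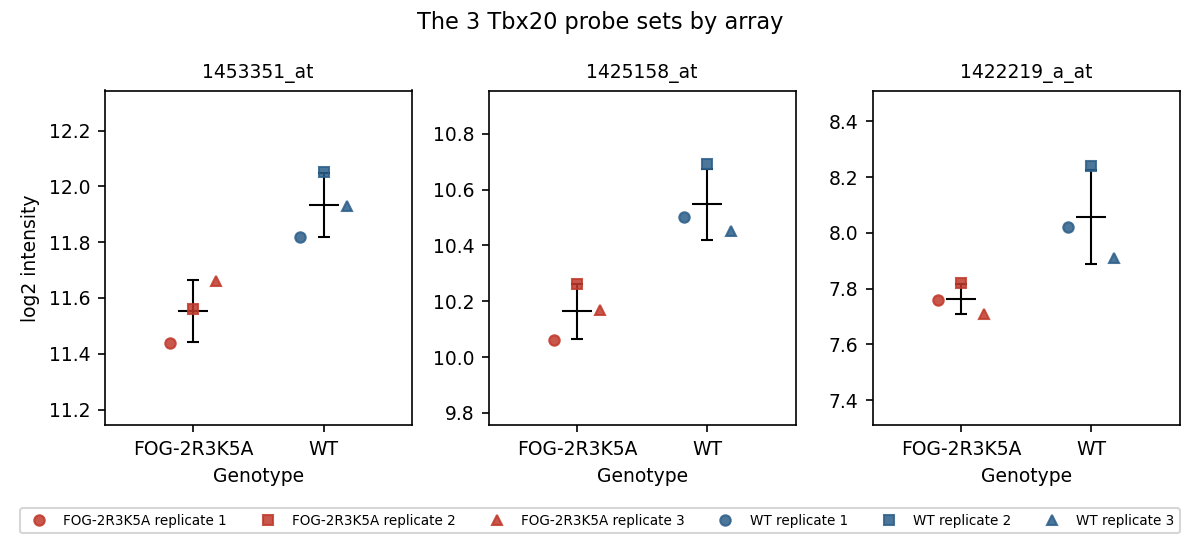
Log2 intensity (y axis, each panel spanning the same number of log2 units) of the 3 Tbx20 probe sets by genotype, with points for single arrays and the mean and SD in black. In each panel the FOG-2R3K5A arrays lie below all WT arrays, with differences of -0.38, -0.39 and -0.29 log2 units from left to right.

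The size of the Tbx20 difference varied little with the processing, but its place under the threshold did not hold. The difference ran from -0.44 to -0.32 over 16 alternatives, and its adjusted p from 0.0135 to 0.204. It stayed under 0.05 in 5 of them and exceeded it in 11. Leaving out any array other than WT replicate 1 ended the call, with adjusted p of 0.114 without WT replicate 2, 0.139 without WT replicate 3, and 0.204, 0.136 and 0.0753 without FOG-2R3K5A replicates 1, 2 and 3. Without WT replicate 1 the difference was -0.44 (adjusted p = 0.0260). Centring each array on its median gave -0.34 (adjusted p = 0.0703), and without the filter on low values the adjusted p was 0.118.

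**Figure D3:**
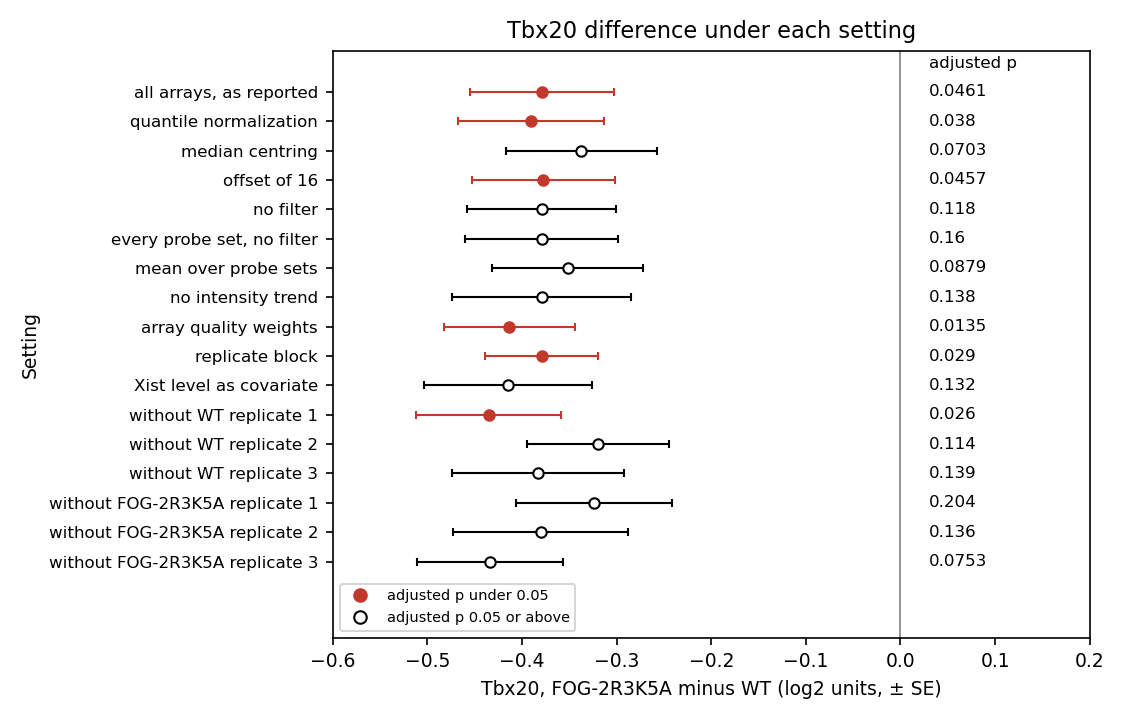
Difference of Tbx20 between genotypes (x axis, log2 units, with SE) under each processing setting (y axis), with limma's adjusted p at the right. Every difference lies between -0.44 and -0.32, and the filled red points, as reported and in 5 alternatives, have an adjusted p under 0.05.

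Tbx5, which activates chamber genes and is enriched in the atria and the left ventricle, did not pass. Its brightest probe set, 1425695_at, read 8.54, 8.68 and 9.20 in FOG-2R3K5A hearts and 9.07, 8.76 and 9.09 in WT hearts. FOG-2R3K5A replicate 3 was the highest of all 6 arrays, while the other two FOG-2R3K5A arrays were the lowest. The means were 8.81 ± 0.35 in FOG-2R3K5A hearts and 8.97 ± 0.19 in WT hearts (SD, n = 3 each), a difference of -0.16 (95% interval -0.55 to 0.22, adjusted p = 0.686). The other Tbx5 probe set, 1425694_at, read 7.81, 7.97 and 8.12 in FOG-2R3K5A hearts and 8.22, 8.31 and 8.06 in WT hearts, a difference of -0.23 (SE 0.11, adjusted p = 0.495). Here too FOG-2R3K5A replicate 3 was the highest of its genotype and overlapped the WT arrays. Without that replicate the difference of the brightest probe set was -0.36 (adjusted p = 0.270), and without FOG-2R3K5A replicate 1 it was -0.03.

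FOG-2R3K5A replicate 3 also held the highest readings of several lung and airway genes. Scgb3a2, an airway secretoglobin, read 9.03, 4.87 and 11.36 in FOG-2R3K5A replicates 1, 2 and 3 and 4.83, 4.81 and 5.40 in WT hearts. Sftpc, the surfactant protein C gene of alveolar epithelium, read 6.17, 5.80 and 9.43 in FOG-2R3K5A hearts and 6.07, 5.86 and 6.53 in WT hearts. The summed level of the 13 lung markers was 10.30, 9.69 and 12.01 log2 units in FOG-2R3K5A hearts and 9.51 to 9.75 in WT hearts, and 5 of the 13 were above the filter level on average, with 0 called by limma and 1, Scgb3a2, at an unadjusted p under 0.05, as 14.7% of all tested genes were. Etv5, the brightest of them, read 8.31 to 8.59 in FOG-2R3K5A hearts and 8.04 to 8.46 in WT hearts. Sftpb and Scgb3a1, also above the filter level, were highest in WT replicate 3, at 7.03 and 6.86. In FOG-2R3K5A replicate 3 they read 6.88 and 6.73, and their differences were -0.14 and 0.001. Nkx2-1, the defining transcription factor of lung epithelium, read 0.00 to 2.07 in FOG-2R3K5A hearts and 0.00 to 2.97 in WT hearts, where 0.00 is the floor of the log scale. The part of lung RNA in the Tbx5 and Tbx4 readings was not tested. For Tbx20 the difference without FOG-2R3K5A replicate 3 was -0.43.

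**Figure D4:**
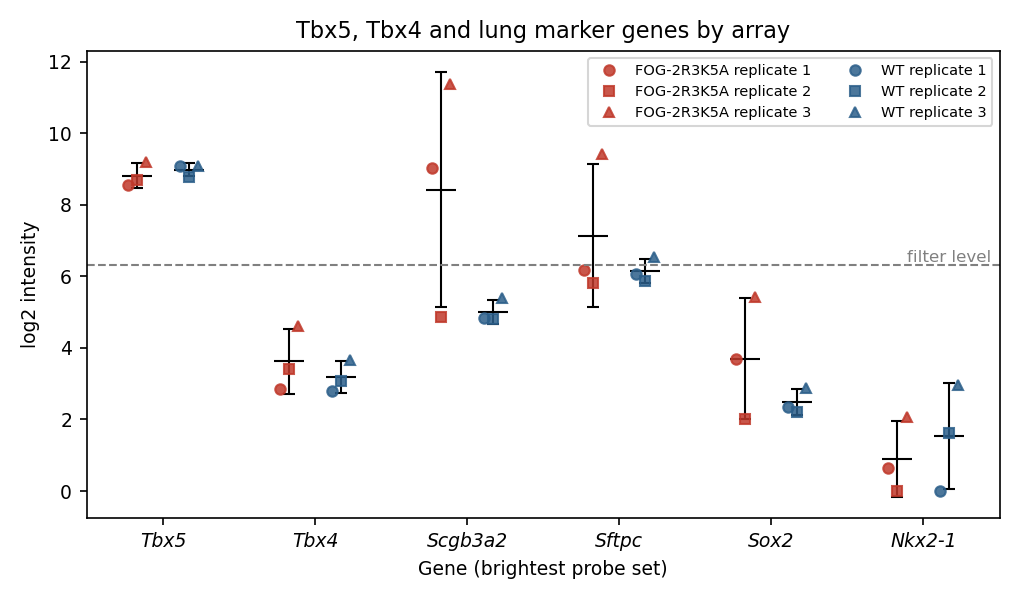
Log2 intensity (y axis) of Tbx5, Tbx4 and 4 lung marker genes (x axis) by array, with the mean and SD in black and the filter level dashed. FOG-2R3K5A replicate 3 (red triangles) is the highest array for Tbx5, Tbx4, Scgb3a2, Sftpc and Sox2 but not for Nkx2-1.

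Tbx3, a repressor of the working myocardial programme that marks the sinus node and the atrioventricular conduction system, lay just above the filter level. Probe set 1448029_at read 6.64, 6.59 and 6.61 in FOG-2R3K5A hearts and 6.54, 6.85 and 7.04 in WT hearts. The FOG-2R3K5A arrays were close together and fell inside the wider WT range. The means were 6.62 ± 0.02 in FOG-2R3K5A hearts and 6.81 ± 0.25 in WT hearts (SD, n = 3 each), a difference of -0.19 (95% interval -0.53 to 0.15, adjusted p = 0.589). The other 4 Tbx3 probe sets lay below the filter level on all arrays and had differences of 0.06, 0.04, 0.23 and -0.36 with adjusted p of 0.752 to 0.945. Without WT replicate 1 the Tbx3 difference was -0.33 (not called), and without WT replicate 3 it was -0.08.

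Tbx2, which restricts chamber formation in the atrioventricular canal, was at the edge of what the arrays read. Its only probe set, 1422545_at, gave 6.11, 5.32 and 5.83 in FOG-2R3K5A hearts and 5.88, 6.63 and 5.83 in WT hearts. Only WT replicate 2 was above the filter level, and the genotypes overlapped. The difference was -0.36 with a 95% interval of -1.03 to 0.31 (adjusted p = 0.668 in the fit over every probe set). Without WT replicate 2 it was -0.10, and without FOG-2R3K5A replicate 2 it was -0.14. The measured means, 5.75 ± 0.40 in FOG-2R3K5A hearts and 6.11 ± 0.45 in WT hearts, were both below the filter level, so no fold is given.

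Tbx4 and Tbx1 were dim on all arrays. The brighter Tbx4 probe set, 1456033_at, read 2.85, 3.41 and 4.61 in FOG-2R3K5A hearts and 2.79, 3.08 and 3.67 in WT hearts, and the other, 1426321_at, read 2.83 to 3.62 in FOG-2R3K5A hearts and 1.71 to 3.81 in WT hearts. Tbx1, through 1425779_a_at, read 3.32, 2.15 and 4.45 in FOG-2R3K5A hearts and 3.86, 0.00 and 2.63 in WT hearts. None of these 3 probe sets exceeded the filter level on any array, and their mean readings lay at the 10.8th to 15.6th percentile of all probe sets. By the same measure Tbx2 lay at the 45.1st, Tbx3 at the 55.3rd, Tbx5 at the 79.8th and Tbx20 at the 97.7th percentile. Brightness depends on the probes as well as on the transcript, so these places do not rank the transcripts.

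**Figure D5:**
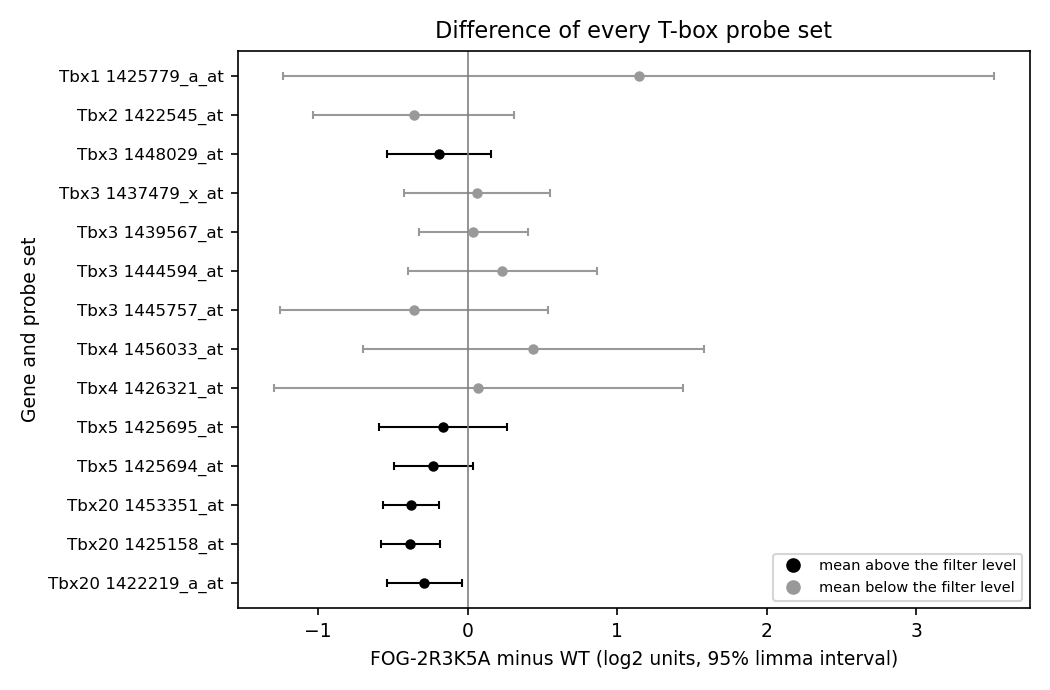
Difference between genotypes (x axis, FOG-2R3K5A minus WT, log2 units, with limma's 95% interval) for all 14 T-box probe sets (y axis), from the fit over every probe set. The intervals of the 3 Tbx20 probe sets lie below 0, those of the other 11 include 0, and grey marks probe sets whose mean lies below the filter level.

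That Tbx20 passed and Tbx5 and Tbx3 did not does not show that their changes differ. The change of Tbx20 minus that of Tbx3 was -0.19 (exact permutation p = 0.3, two-sided), and minus that of Tbx5 it was -0.21 (exact permutation p = 0.6), both 0.6 after adjustment over the 2 contrasts. With 3 arrays against 3 the exact test cannot go below 0.1. Across the 6 arrays the log2 values of Tbx20 and Tbx3 had a Pearson r of 0.628, those of Tbx20 and Tbx5 of 0.416 and those of Tbx3 and Tbx5 of 0.125. The Tbx20 probe sets had r of 0.831 to 0.943 with each other. The genes whose readings were most like those of Tbx20 over the 6 arrays were Ppp2r5a (r = 0.995), Ier5 (0.991) and Tcl1b1 (0.991). For Tbx5 they were Zscan21 (0.989), Ascc2 (0.986) and Carf (0.985), and for Tbx3 Fndc10 (0.997), Lynx1 (0.995) and Nmb (0.994). With 6 arrays and 11113 genes, correlations of this size describe these arrays only.

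Of the other T-box genes, 9 had a probe set and 2 were above the filter level. Tbx18, a factor of the epicardium and the sinus horns, had 10.31 ± 0.11 in FOG-2R3K5A hearts and 10.42 ± 0.03 in WT hearts (adjusted p = 0.521). Mga, a large protein that pairs a T-box with a Max-binding domain, had a difference of -0.11 (adjusted p = 0.601), while its dimmest probe set above the filter level had 0.21. Neither passed the test, and by limma 0 of the 2 had an unadjusted p under 0.05.

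Partners and regulators of the T-box factors were called in 1 of 20 tested cases, against 1.76% of all tested genes called in either direction and 1.39% called higher. Zfpm2, which carries the substitutions, rose by 0.44 (SE 0.06, 1.36-fold, adjusted p = 0.0134), with 10.59, 10.55 and 10.52 in FOG-2R3K5A hearts and 10.07, 10.13 and 10.14 in WT hearts. Since the allele changes amino acids, this level does not check the labels. The call ended in 4 of 15 alternatives, without WT replicate 3, without FOG-2R3K5A replicate 1 or 2 and with the level of Xist, an RNA made from the inactive X chromosome, as a covariate (highest adjusted p 0.115). The list's median difference was -0.10, against -0.01 for all tested genes, and 12 of the 20 were negative, where 52.8% of all genes were. Gata6, a partner of T-box factors in myocardium, read 10.85, 10.83 and 10.48 in FOG-2R3K5A hearts and 11.07, 11.58 and 11.00 in WT hearts. These did not overlap, and the difference of -0.50 did not pass (adjusted p = 0.173). Without WT replicate 2, the highest array, the difference was -0.31. Its other two probe sets above the filter level had -0.61 and -0.32.

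Other members of this list that did not pass lay on both sides. Zfpm1, which encodes FOG-1, had a difference of 0.50 (SE 0.12, adjusted p = 0.0770), and Tgfb2, a growth factor of cushion formation, had 0.49 (SE 0.11, adjusted p = 0.0723), while its other 3 probe sets above the filter level had 0.19 to 0.33. Both were higher on each FOG-2R3K5A array than on any WT array, as were 1275 of all 11113 tested genes. Each passed by limma in 2 of 15 alternatives, with array quality weights and without WT replicate 1 (adjusted p = 0.0231 and 0.0124 there). In the other 13 neither passed (highest adjusted p 0.346 and 0.276). Mycn, a growth regulator of the compact myocardium, had -0.39 (adjusted p = 0.173) and was chosen after its values were seen. Nkx2-5 and Gata4, the classic partners of Tbx5 and Tbx20, had -0.09 and -0.31 (adjusted p = 0.756 and 0.520) and were also picked afterwards.

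Chamber genes, many of which T-box factors activate or repress, were called in 0 of 16 tested cases, with 5 at an unadjusted limma p under 0.05 in the positive direction and 1 in the negative. Over all tested genes 8.4% reached that p in the positive direction and 6.33% in the negative. Their median difference was 0.04, and 6 of the 16 were higher on each FOG-2R3K5A array than on any WT array and 2 were lower, while 21.2% of all tested genes were separated in either direction. Nppa, the atrial natriuretic peptide gene whose promoter is shown above, read 13.47, 13.50 and 13.48 in FOG-2R3K5A hearts and 13.37, 13.40 and 13.39 in WT hearts, a difference of 0.10 (adjusted p = 0.174). Ankrd1, a stretch-responsive muscle gene with the T-box site in its window, had 12.97 ± 0.01 in FOG-2R3K5A hearts and 12.87 ± 0.02 in WT hearts (SD, n = 3 each; adjusted p = 0.226). Both were higher on each FOG-2R3K5A array than on any WT array, and both are among the brightest genes on the arrays. The other tested list genes with that site in a window were Tnni3, Ckm and Casz1. Their differences were -0.02, -0.11 and -0.12, their genotypes overlapped and none passed. Whether the site bears on any of these differences was not tested. Nppb had 0.48 (adjusted p = 0.145) and Myl7, the atrial light chain, 0.14 (adjusted p = 0.160). Each passed by limma without WT replicate 1 (differences of 0.29 and 0.18, adjusted p = 0.0322 and 0.0265), and Nppb also with array quality weights. In the other 13 of 15 alternatives for Nppb and 14 of 15 for Myl7 they did not pass (highest adjusted p 0.421 and 0.497). Cited1, a transcriptional coregulator, had -0.41 (adjusted p = 0.0949). The connexin genes Gja1 and Gja5, known targets of repression by Tbx2 and Tbx3, had -0.03 (95% interval -0.18 to 0.12) and -0.00 (95% interval -0.51 to 0.50).

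Pacemaker and conduction genes, the territory of Tbx3, were called in 2 of 8 tested cases, both higher, against 1.39% of all genes called higher. Kcnj3, a subunit of the acetylcholine-activated potassium channel, read 9.69, 9.58 and 9.68 in FOG-2R3K5A hearts and 9.08, 8.83 and 8.96 in WT hearts, a rise of 0.69 (SE 0.09, 1.61-fold, adjusted p = 0.00853). Its other two probe sets above the filter level had 0.52 and 0.47, and the mean over all its probe sets had 0.42 (adjusted p = 0.0602). Kcne1, a potassium channel subunit, read 11.61, 11.48 and 11.36 in FOG-2R3K5A hearts and 10.48, 10.97 and 10.68 in WT hearts, a rise of 0.77 (SE 0.12, 1.71-fold, adjusted p = 0.0159). The genotypes did not overlap for either gene. Shox2, the sinus node factor that acts with Tbx3, read 8.62, 8.32 and 9.27 in FOG-2R3K5A hearts and 8.56, 7.26 and 7.92 in WT hearts and did not pass (adjusted p = 0.274). Its difference was 0.83, and 0.50 without WT replicate 2, the lowest array. Cpne5, a marker of the conduction system in mice, had -0.38 (adjusted p = 0.151), and Cacna1h 0.29 (adjusted p = 0.362). The call of Kcnj3 ended in 4 of 15 alternatives, without FOG-2R3K5A replicate 1 or 3, with the mean over probe sets and with the Xist covariate (highest adjusted p 0.0674). That of Kcne1 ended in 5 of 15, without WT replicate 3, without FOG-2R3K5A replicate 1 or 3, without the filter and without the intensity trend (highest adjusted p 0.0847). The limma fit over every probe set is not among these 15. There the brightest probe set of Kcnj3 had an adjusted p of 0.0380 and that of Kcne1 0.0856.

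Valve and cushion genes, which the Tbx2 domain borders, were called in 1 of 11 tested cases, against 1.39% of all tested genes called higher. Vcan, the versican gene of cushion matrix, rose by 0.50 (SE 0.10, 1.42-fold, adjusted p = 0.0385), with 11.42, 11.49 and 11.34 in FOG-2R3K5A hearts and 11.14, 10.79 and 10.81 in WT hearts. Its other two probe sets above the filter level had 0.83 and 0.89. In the limma fit over every probe set these had adjusted p of 0.0491 and 0.0487, and the brightest had 0.141. The call of Vcan ended in 9 of 15 alternatives, which do not include that fit (adjusted p = 0.102 to 0.196). These were the removal of any single array other than WT replicate 1, no filter, the mean over probe sets, no intensity trend and the Xist covariate. Mmp2 and Nfatc1 each had 0.29 and did not pass, and 9 of the 11 were positive, where 47.2% of all genes were. Without WT replicate 3 the Mmp2 difference was 0.19. In the outflow and pharyngeal list, where Tbx1 acts, 0 of 7 tested genes were called by limma and 1, Foxc2, had an unadjusted p under 0.05. Foxc2 had 0.44 (adjusted p = 0.232), with its highest reading, 9.50, again in FOG-2R3K5A replicate 3, and without that replicate the difference was 0.27.

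Markers of other tissues moved with genotype in places. In the skeletal muscle list 2 of 5 tested genes were called, both lower in FOG-2R3K5A hearts, against 0.369% of all tested genes called lower. Tnni2, the fast skeletal troponin I, fell by 1.04 (adjusted p = 0.0217) and Casq1, the skeletal calsequestrin, by 0.41 (adjusted p = 0.0467). The call of Casq1 held in 3 of 15 alternatives, quantile normalization, the offset of 16 and the replicate block, and ended in the other 12, the removal of each single array included (highest adjusted p 0.207). That of Tnni2 ended in 5 of the 14 alternatives that gave it a value, without WT replicate 2, without FOG-2R3K5A replicate 1 or 3, without the filter and with the Xist covariate (highest adjusted p 0.123). In the limma fit over every probe set, not counted among these alternatives, neither passed (adjusted p = 0.0989 for Tnni2 and 0.135 for Casq1). The summed level of that list overlapped between the genotypes, at 13.40 to 13.51 in FOG-2R3K5A hearts and 13.42 to 13.72 in WT hearts, with Ckm the brightest member, and Myod1 and Myog were below the filter level. The summed level of 7 neural markers was 10.10 to 10.25 in FOG-2R3K5A hearts and 9.75 to 9.89 in WT hearts. There limma called 0 of 3 tested genes, and 1, Uchl1, had an unadjusted p under 0.05 (difference 0.61), as 14.7% of all tested genes did. Uchl1 was the brightest of the list, with means of 9.65 in FOG-2R3K5A hearts and 9.04 in WT hearts. The other tested genes, Sox10 and Dbh, had differences of -0.08 and -0.003. The summed level of 9 thymus markers was 8.09 to 8.20 in FOG-2R3K5A hearts and 8.23 to 8.51 in WT hearts. Of these Cd8a alone lay above the filter level on average and was tested (difference -0.34, limma adjusted p = 0.309). The other thymus markers lay below that level, so whether thymus tissue differed cannot be told from this sum. For 6 liver markers the summed level overlapped, at 7.84 to 8.19 in FOG-2R3K5A hearts and 7.78 to 8.97 in WT hearts. The part of these tissues in the Tbx20 difference was not tested.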

How the data were processed

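The authors' deposited table holds 1-colour Affymetrix probe set intensities for 6 arrays, from 3 µg of total RNA per sample, per the labels' protocols. These intensity values were on a linear scale and already similar between arrays (medians within 0.120 log2 units). How they were normalized, and with which software, is not given in the sources used here. Precision is limited by the number of arrays. Intensities were floored at 1 and log2-transformed. The platform annotation gave 1 symbol for 34945 of 45101 probe sets. Each gene was represented by its brightest probe set on average, and 7080 of 18193 genes with a mean at or below the filter level were left out. The test was that of limma 3.58.1 (R 4.3.3), two-sided, with eBayes and an intensity trend, adjusted by Benjamini-Hochberg over 11113 genes, with a call at an adjusted p under 0.05. The fit was also run on simulated arrays. The differences planted there were all larger than that of Tbx20, so that run does not bear on its call. Differences are FOG-2R3K5A minus WT. Errors of differences are standard errors (SE). Named list genes are those called, up to 3 with the smallest other p of a list and the brightest marker of another tissue, and like genes the 3 with the highest r. Nppa, Ankrd1, Gja1, Gja5, Mycn, Nkx2-5, Gata4, Casz1 and Sox2 fall outside that rule and were named after their values were seen. The same holds for the tissue markers Tnnt2, Myh6, Tnni3, Nkx2-1, Sftpb, Scgb3a1, Myod1 and Myog. The members, lists and tests were chosen with earlier results of these data known. Alternatives covered normalization, an offset of 16, the filter, probe sets, the variance model, the replicate number as a block, each array left out and, added later, the Xist level as a covariate, since the embryos' sex is not in the labels.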

Additional observations from a re-analysis of the deposited data

How the results depend on the processing

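The call of Tbx20, and with it the count of 1 T-box member called, held with quantile normalization, an offset of 16, array quality weights, the replicate block (-0.38, adjusted p = 0.0290) and without WT replicate 1. The count was 0 in the other 11 alternatives: median centring (-0.34), no filter (-0.38), every probe set tested on its own (-0.38), the mean over probe sets (-0.35), no intensity trend (-0.38), the Xist level as a covariate (-0.41) and the removal of each of the other 5 arrays. Without single arrays the difference ran from -0.44 to -0.32 and the count from 0 to 1. The number of all genes called was 196. It was 81 without the filter, 79 for every probe set, 125 with the mean over probe sets, 119 without the trend, 429 with array quality weights, 43 with the Xist covariate and 37 to 451 without single arrays, lowest without FOG-2R3K5A replicate 1 and highest without WT replicate 1. It was 234 with the replicate block. Same-numbered arrays had correlations of their deviations of -0.06, 0.13 and 0.41. Differently numbered arrays were not compared in this way, so whether the numbers pair the samples cannot be told from these values. Tbx5 and Tbx3 were negative in all fits that held them, from -0.39 to -0.03 and from -0.33 to -0.08. The mean over probe sets put Tbx3 below the filter. Only probe sets below the filter changed sign. These were Tbx4 1426321_at (-0.030 with the offset, -0.0084 with quality weights, -0.59 to 0.46 without single arrays), Tbx4 1456033_at (-0.031 with quality weights, -0.053 to 0.83 without single arrays), Tbx3 1439567_at (-0.0057 with quality weights, -0.056 to 0.088 without single arrays) and Tbx3 1437479_x_at (-0.070 to 0.23 without single arrays). Where a call was lost with the same number of arrays and genes, the cause was not tested.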
